A study of Mus musculus with 29 samples.

Results

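Clustered protocadherins are neuronal adhesion proteins of the cadherin superfamily whose genes stand in 3 tandem arrays, called alpha, beta and gamma. All Ensembl rows of the deposited table whose mouse symbol begins with Pcdha, Pcdhb or Pcdhg and whose value reached 10 in at least 3 libraries were taken as members. That gave 57 of 18240 rows, with 14 in the alpha, 21 in the beta and 22 in the gamma cluster. Every member passed the limit of 10 in all 29 libraries, and none lay outside it. Pcdha8 came closest, with 12.02 in its lowest library. Of the 58 reference identifiers with these prefixes, Pcdhb1 was not analysed here.

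In the alpha and gamma clusters each variable first exon has its own promoter and is spliced to a set of constant exons common to the cluster, while beta genes are single coding exons without a constant part. A neuron chooses few of the variable promoters, largely at random, through loops held by CTCF and cohesin, and the resulting set of surface proteins lets a neuron tell its own branches from those of others. The C-type genes at the end of the alpha and gamma clusters (Pcdhac1, Pcdhac2, Pcdhgc3, Pcdhgc4 and Pcdhgc5) escape this random choice and are used more widely.

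The series is bulk RNA sequencing of prefrontal cortex taken from C57BL/6J mice at postnatal day 40. One group of carriers, heterozygous for the K228E allele of Tbr1 (Tbr1+/K228E, HT), was given fluoxetine (4 females, 4 males). A second group of HT mice was given lithium (3 females, 4 males) and another group vehicle (3 females, 3 males). WT mice, without the allele, were given vehicle (4 females, 4 males). All groups share the strain, the age, the tissue and a single batch label, and the labels used here give no dose, no length of treatment and no drug-treated WT group. The labels do not say whether replicates are separate animals, so p-values measure the spread between these samples, which may be technical in part.

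Libraries held 22808894 to 31711931 recovered reads, of which members took 0.106 to 0.114%. Tbr1, the transcription factor that carries the allele, averaged 4159 ± 590 normalised counts in HT fluoxetine, 4425 ± 321 in HT lithium, 4067 ± 392 in HT vehicle and 2866 ± 445 in WT vehicle (SD, n = 8, 7, 6 and 8). The table does not separate its alleles. Xist matched the F or M letter in all 29 libraries. The cortical excitatory marker Slc17a7 was present throughout, at no less than 32387 normalised counts. Markers of striatum (12 of 12 in the table) and olfactory bulb (10 of 10) varied between libraries. Their mean lay more than 1 on the log2 scale above the median of all libraries in 9 of them, namely 4 HT fluoxetine, 1 HT lithium, 1 HT vehicle and 3 WT vehicle libraries.

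All members lie on the plus strand of chromosome 18 in GRCm38. The alpha cluster spans chr18:36930184-37187661, the beta cluster chr18:37294812-37524479 and the gamma cluster chr18:37661793-37841873, each from the first to the last annotated exon of its members. Alpha members share 38.0 to 54.9% of their exon bases with other members and gamma members 27.8 to 66.8%. Beta members share none, except Pcdhb21 (9.7%) and Pcdhb22 (6.9%). Of all 31-base words in the transcripts of a member, those found in no other member made up 29.8 to 55.1% in alpha, 77.5 to 95.6% in beta and 32.5 to 72.7% in gamma. How reads from shared exons were divided among members is not given in the sources used here. A value of an alpha or gamma member therefore depends on that division. The sum over a cluster does not, provided that each shared read was counted once within its cluster, which is not known.

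The C-types led both constant-exon clusters. Levels were set beside each other as normalised counts per kilobase of exon (mean ± SD over 29 libraries). Pcdhgc5, which is known to bind GABA-A receptors, reached 912 ± 58.9 per kilobase. Pcdhgc3, which promotes dendrite branching in mouse cortical neurons, followed at 563 ± 35.5, and Pcdhac2, which mouse serotonergic axons need for their spacing, at 398 ± 36.5. Pcdhgc4, which mouse neurons need for survival, stood at 325 ± 83.7, and its spread overlapped that of Pcdhac2. Pcdhac1 was the exception among C-types, at 50.3 ± 7.24 per kilobase, close to the other alpha genes. Pcdhgc5 made up 33.0% of the summed gamma signal, and Pcdhac2 made up 40.3% of the summed alpha signal.

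The median level was 398 per kilobase for the 5 C-types, 104 for the 12 gamma A genes, 64.9 for the 7 gamma B genes, 47.2 for the 12 other alpha genes and 41.1 for the 21 beta genes. Among alpha genes, Pcdha12 (95.4 ± 13.3 per kilobase) and Pcdha5 (74.1 ± 10.002) came after Pcdhac2, and their spreads overlapped each other but not that of Pcdhac2. The lowest were Pcdha11 (28.6 ± 7.25), Pcdha1 (21.1 ± 5.14) and Pcdha8 (8.60 ± 4.55). In the beta cluster Pcdhb9 (108 ± 9.48), Pcdhb17 (102 ± 8.94) and Pcdhb20 (96.1 ± 6.67) led, with overlapping spreads. Pcdhb6 (27.5 ± 5.20), Pcdhb2 (25.3 ± 4.81) and Pcdhb4 (19.9997 ± 3.77 per kilobase) were lowest. In the gamma cluster the lowest were Pcdhgb4 (44.9 ± 7.53), Pcdhgb5 (38.7 ± 6.03) and Pcdhgb8 (11.4 ± 3.06).

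**Figure D1:**
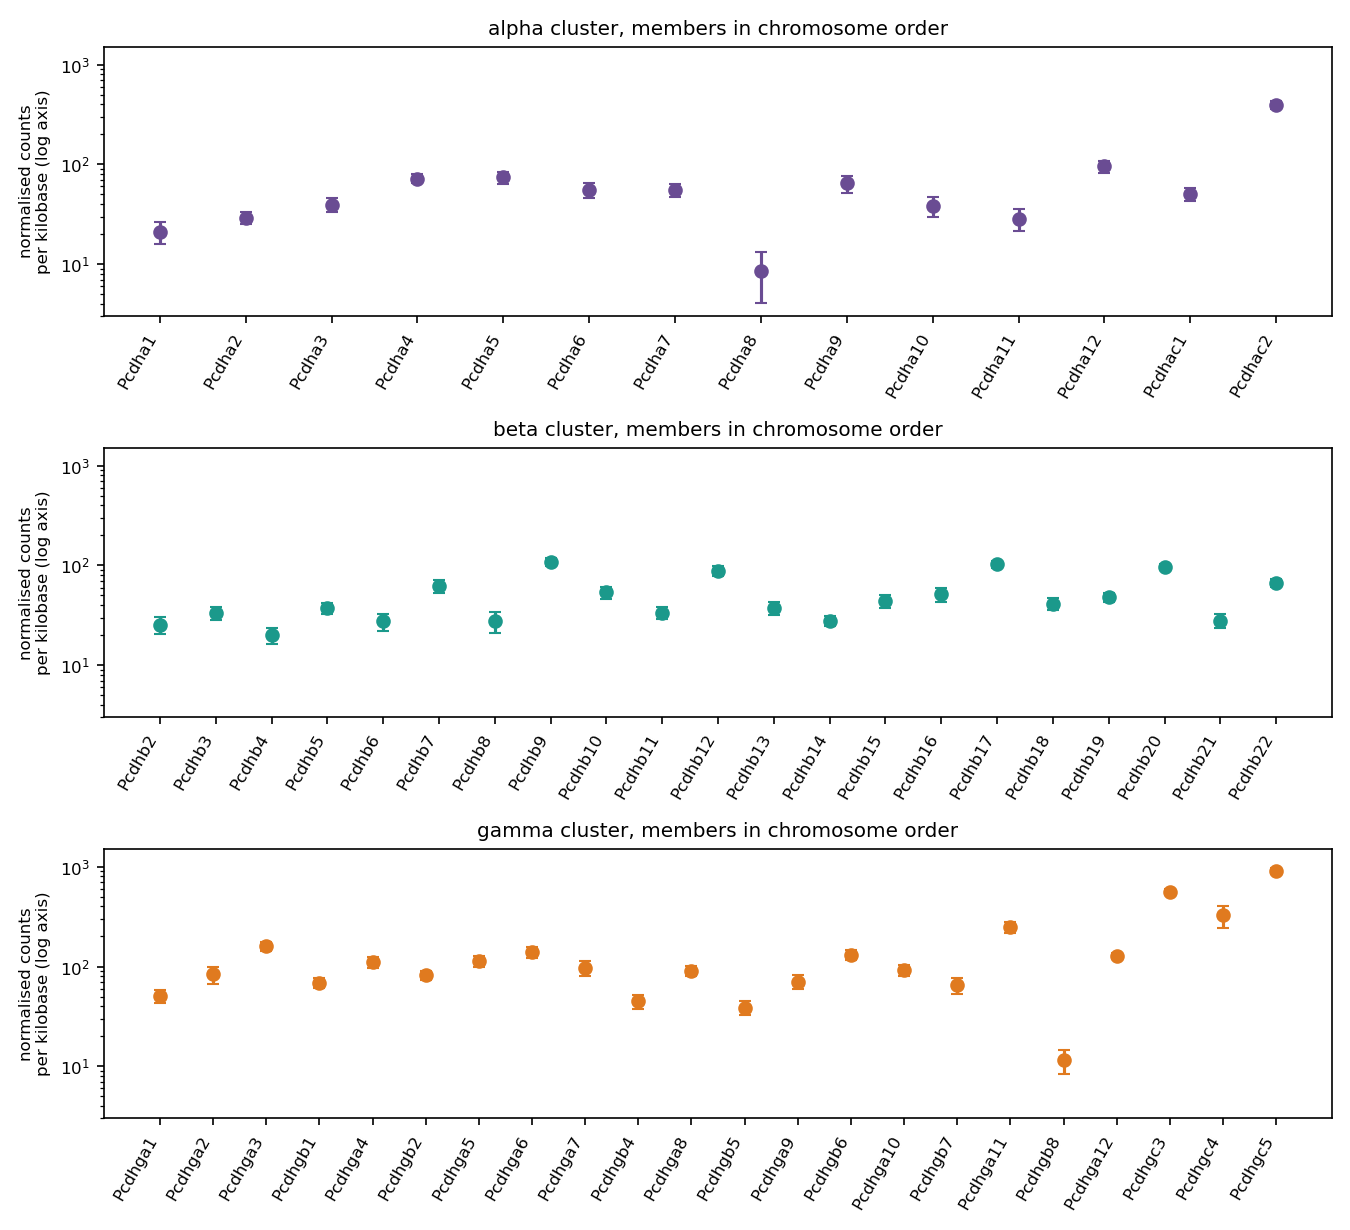
Level of each member in normalised counts per kilobase of exon on a log axis, as mean and SD over 29 libraries, with members in chromosome order in a panel for each cluster. Pcdhac2 and the 3 gamma C-types at the right ends stand highest, and Pcdha8 and Pcdhgb8 stand lowest.

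Summed over a cluster, the protocadherin signal was close to level between groups. The alpha sum averaged 5868 ± 343 normalised counts in HT fluoxetine, 6029 ± 256 in HT lithium, 5716 ± 207 in HT vehicle and 5622 ± 343 in WT vehicle. The beta sum averaged 4416 ± 372, 4328 ± 169, 4483 ± 243 and 4525 ± 320 in the same order of groups (SD, n = 8, 7, 6 and 8). The gamma sum averaged 20992 ± 464 in HT fluoxetine, 20864 ± 456 in HT lithium, 21348 ± 482 in HT vehicle and 21123 ± 481 in WT vehicle. With both sexes together, the libraries of the groups overlapped in each cluster. The log2 difference of the sums was 0.03 in alpha, -0.01 in beta and 0.02 in gamma for HT vehicle minus WT vehicle. It was 0.04, -0.02 and -0.02 for HT fluoxetine minus HT vehicle, and 0.07, -0.05 and -0.03 for HT lithium minus HT vehicle. The SD within groups was 0.08 in alpha, 0.09 in beta and 0.03 in gamma on the same scale. In bulk tissue, fewer cells of a type and less RNA per cell cannot be told apart. No test was made on sums, since the members were chosen with earlier results known.

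**Figure D2:**
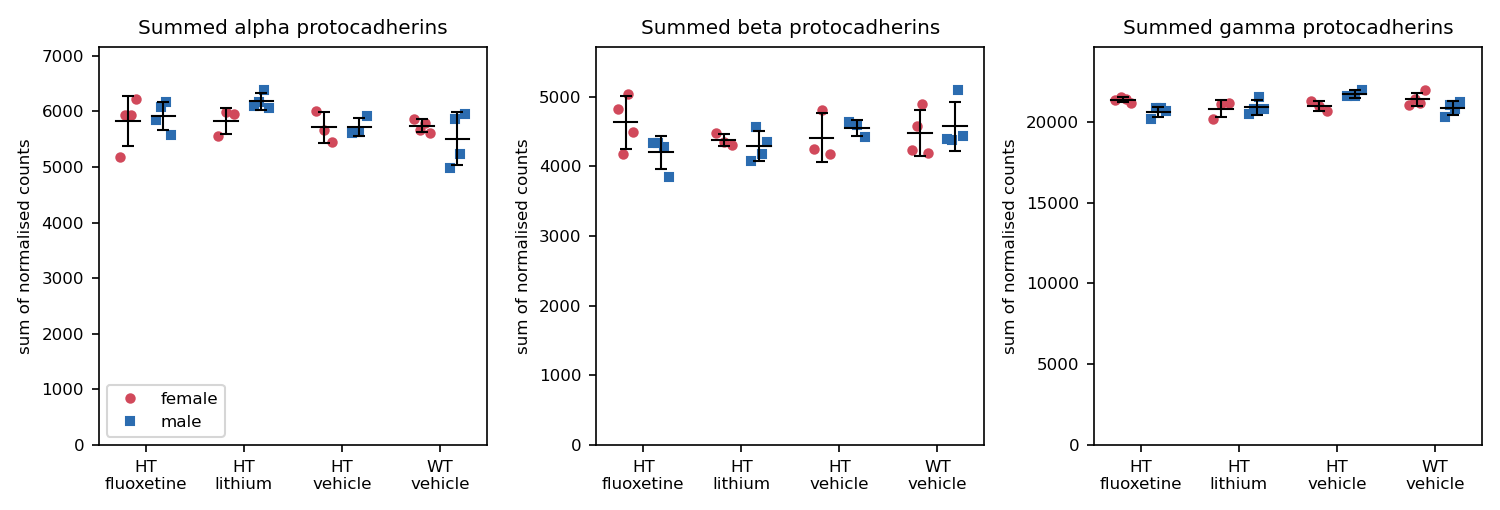
Summed normalised counts of the members of each cluster in every library, by group, with females as circles left of males as squares, and bars for the mean and SD of each sex. With both sexes together the groups overlap in all 3 panels. Among males alone, HT fluoxetine lies below HT vehicle in the beta and gamma panels, and below WT vehicle in the beta panel. In the gamma panel HT vehicle males lie above the males of all other groups. In the alpha panel HT lithium males lie above HT vehicle and WT vehicle males. Over all 29 libraries the alpha sum lies near 5808, the beta sum near 4438 and the gamma sum near 21071.

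The first question was whether carriers differ from WT mice in any single member. None of the 57 members passed the threshold in HT vehicle minus WT vehicle. The test was limma on log2(normalised count + 1), fitted on all 17881 tested genes and all 29 libraries, with a Benjamini-Hochberg adjusted p of 0.05 as the threshold. By that rule 0.207% of all tested genes were called. At an unadjusted p under 0.05 there were 3 members, or 5.26%, against 12.3% of all tested genes. edgeR and DESeq2 on recovered reads also called 0 members. The 95% interval lay within a 1.5-fold change either way for 56 members, the exception being Pcdha8. The median log2 fold change of members was 0.01, against 0.00011 over all tested genes, and 31 of 57 were positive.

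Pcdhb20, a beta gene, had the smallest p, with a lowest, median and highest normalised count of 289, 318 and 344 in HT vehicle, against 325, 347 and 383 in WT vehicle. The lower end of WT vehicle overlapped the upper end of HT vehicle, and the log2 fold change was -0.14 ± 0.05 (SE), with an adjusted p of 0.229 by limma. Pcdha3, a variable alpha gene, ran from 154 through 193 to 214 in HT vehicle and from 204 through 223 to 274 in WT vehicle (log2 fold change -0.29 ± 0.11, adjusted p = 0.265). Pcdhga2, a gamma A gene, ran from 329 through 421 to 628 in HT vehicle and from 300.0 through 402 to 422 in WT vehicle (0.19 ± 0.09, adjusted p = 0.389). In none of the 57 members were the HT vehicle and WT vehicle libraries fully apart, against 0.336% of all tested genes.

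The next question was whether a drug changes members within HT mice. With fluoxetine, a serotonin reuptake inhibitor, limma called 0 of 57 members and 0.0% of all tested genes. There were 4 members at an unadjusted p under 0.05 (7.02%, against 7.81% of all tested genes), and 0 by edgeR and by DESeq2. Pcdhb20 had 306, 337 and 382 (lowest, median, highest normalised count) in HT fluoxetine, against 289, 318 and 344 in HT vehicle, with a log2 fold change of 0.11 ± 0.05 and an adjusted p of 0.606. Pcdhga2 had 304, 372 and 507 in HT fluoxetine, against 329, 421 and 628 in HT vehicle (-0.20 ± 0.09, adjusted p = 0.621). Pcdha8, a variable alpha gene of few reads, had 26.4, 55.6 and 112 in HT fluoxetine, against 15.2, 28.7 and 62.2 in HT vehicle (0.69 ± 0.32, adjusted p = 0.626). The groups overlapped in these and in all other members, against 0.0615% of all tested genes with groups apart. Pcdha8 was also the only member whose 95% interval passed a 1.5-fold change.

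With lithium, an inhibitor of glycogen synthase kinase 3, limma again called 0 of 57 members and 0.0% of all tested genes. At an unadjusted p under 0.05 there were 5 members, all lower in HT lithium (8.77%, against 11.4% of all tested genes), and 0 were called by edgeR and by DESeq2. Pcdhga2 had 283, 346 and 436 (lowest, median, highest normalised count) in HT lithium, against 329, 421 and 628 in HT vehicle, with a log2 fold change of -0.30 ± 0.10 and an adjusted p of 0.276. Pcdhgb7, a gamma B gene, had 192, 279 and 334 in HT lithium, against 296, 334 and 419 in HT vehicle (-0.40 ± 0.13, adjusted p = 0.276). Pcdha12 had 429, 463 and 555 in HT lithium, against 437, 586 and 643 in HT vehicle (-0.20 ± 0.09, adjusted p = 0.407). No member had its HT lithium and HT vehicle libraries fully apart, against 0.542% of all tested genes. The 95% interval stayed within a 1.5-fold change for 55 members, the exceptions being Pcdha8 and Pcdhgb7. The 2 drug differences and the genotype difference share the HT vehicle libraries. In HT lithium minus HT vehicle all 10 olfactory markers were lower (median -1.11), and 9 of 12 striatal markers were higher (median 0.36). In HT fluoxetine minus HT vehicle all 10 olfactory markers were lower (median -0.49), and all 12 striatal markers were higher (median 0.71). Of these markers limma called 0. The cause of the differences in members was not tested.

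**Figure D3:**
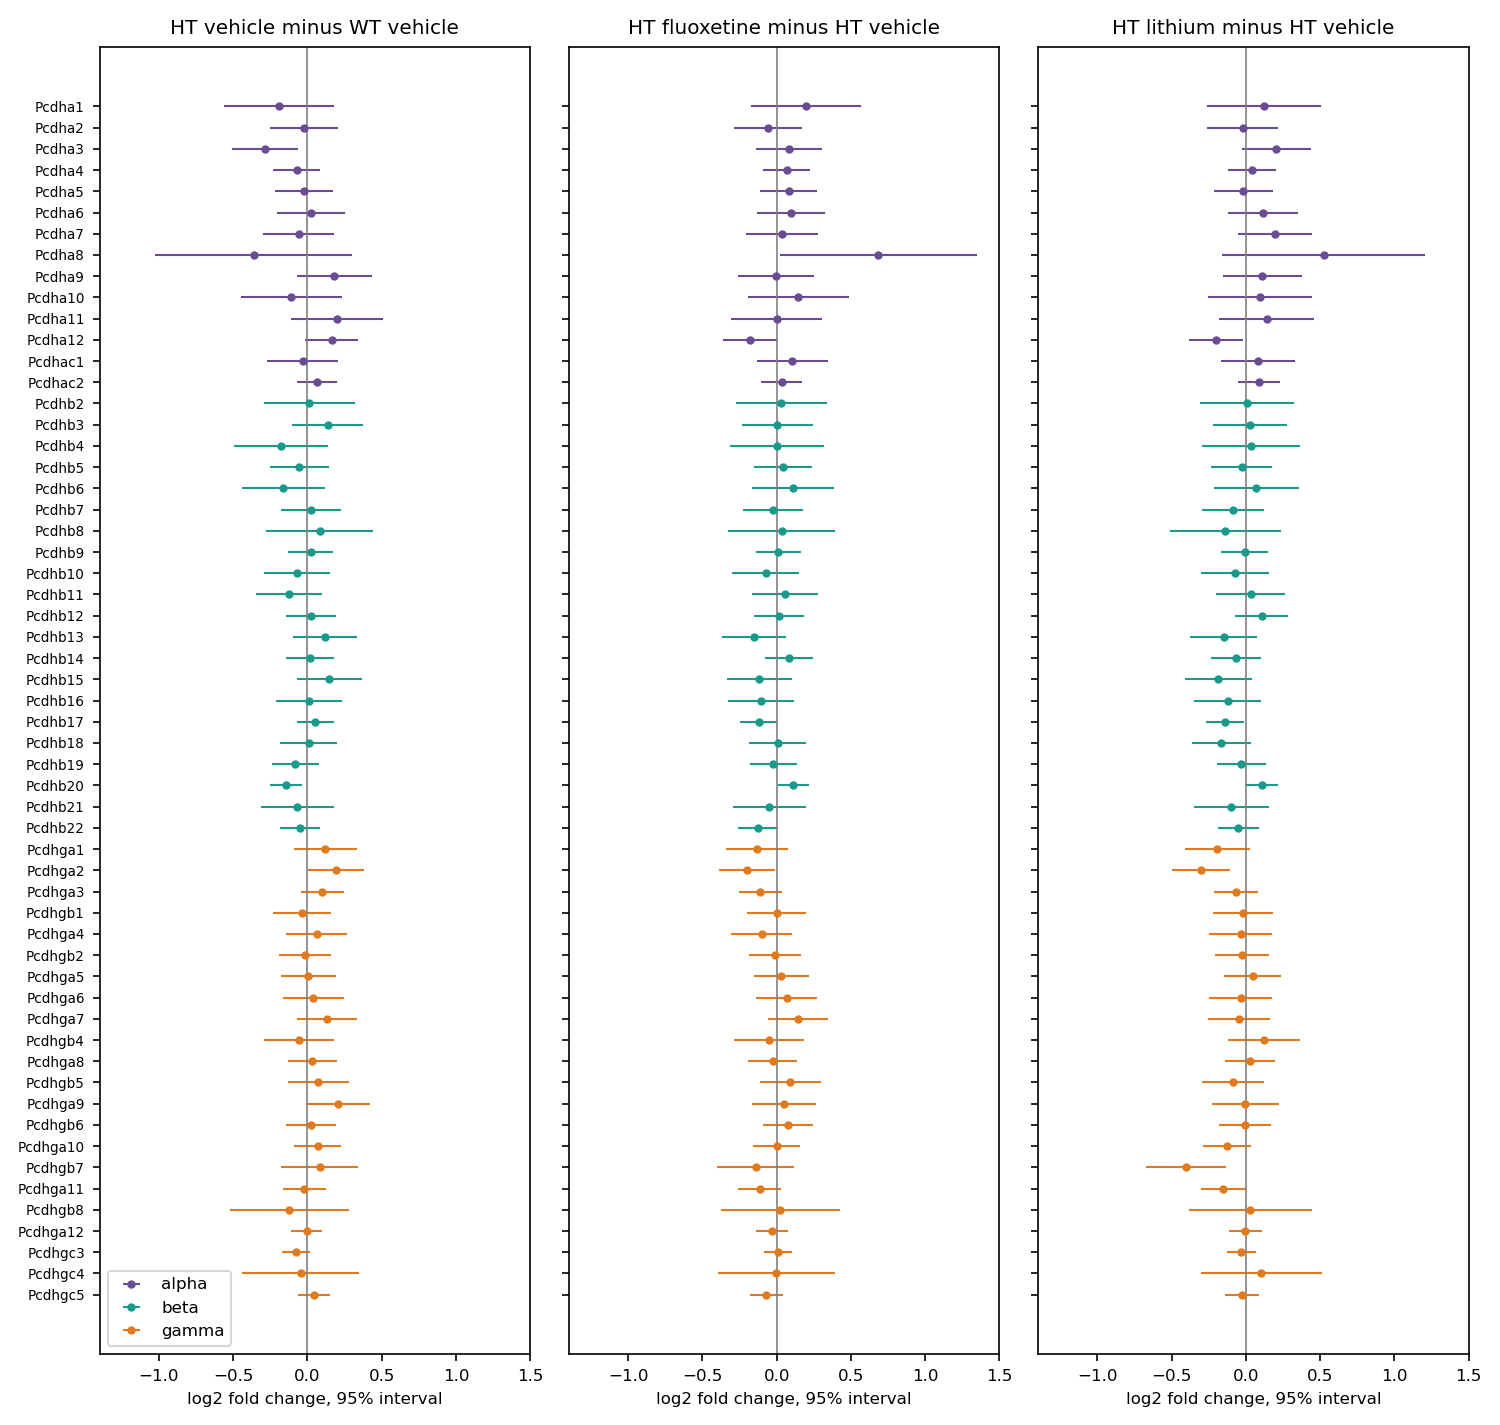
Log2 fold change of each member with its 95% interval from limma, for HT vehicle minus WT vehicle, HT fluoxetine minus HT vehicle and HT lithium minus HT vehicle, with members in chromosome order and coloured by cluster. No member passed the threshold in these 3 comparisons, and the widest intervals belong to Pcdha8 and Pcdhgb8.

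Set against WT vehicle, drug-treated carriers had no called member either. For HT fluoxetine minus WT vehicle, limma called 0 of 57 members (0.19% of all tested genes), with 4 at an unadjusted p under 0.05 (7.02%, against 9.26%). Pcdhga7, a gamma A gene, had the smallest p (log2 fold change 0.28 ± 0.09, adjusted p = 0.282), before Pcdhb22 (-0.18 ± 0.06, adjusted p = 0.309) and Pcdhga9 (0.25 ± 0.10, adjusted p = 0.388). For HT lithium minus WT vehicle, limma called 0 members, while it called 1.9% of all tested genes, and 6 members had an unadjusted p under 0.05 (10.5%, against 18.6%). Pcdhgb7 (-0.32 ± 0.12, adjusted p = 0.160), Pcdhga11 (-0.17 ± 0.07, adjusted p = 0.173) and Pcdhgc3 (-0.11 ± 0.04, adjusted p = 0.181) came first. For all carriers minus WT vehicle, limma called 0 members and 1.93% of all tested genes, with 7 members at an unadjusted p under 0.05 (12.3%, against 16.1%). Pcdhga9 (0.22 ± 0.08, adjusted p = 0.179), Pcdhgc3 (-0.09 ± 0.04, adjusted p = 0.230) and Pcdha9 (0.22 ± 0.10, adjusted p = 0.264) led there, and all 57 intervals stayed within a 1.5-fold change. For HT lithium minus HT fluoxetine, limma called 0 members and 0.0% of all tested genes, with 1 member, Pcdhgb7, at an unadjusted p under 0.05 (1.75%, against 3.5%; log2 fold change -0.26 ± 0.12, adjusted p = 0.985). Pcdhga7 (-0.19 ± 0.09) and Pcdhb18 (-0.17 ± 0.09) followed, both at an adjusted p of 0.985. edgeR and DESeq2 called 0 members in all 4 of these comparisons. Without the 9 libraries with high striatal or olfactory markers, 0 members were called in any of the genotype and drug comparisons over both sexes. With all 29 libraries it was also 0, and fewer libraries give less precision, so the part of the markers cannot be read from that fit.

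The C-types were steady between groups, and Pcdhgc4 was the exception only within them. Pcdhgc5 averaged 6804 ± 461 normalised counts in HT fluoxetine, 7011 ± 447 in HT lithium, 7127 ± 276 in HT vehicle and 6928 ± 561 in WT vehicle. Pcdhgc3 averaged 3081 ± 222, 2993 ± 124, 3061 ± 170 and 3231 ± 190 in the same order. Pcdhac2 averaged 2369 ± 213 in HT fluoxetine, 2482 ± 212 in HT lithium, 2311 ± 128 in HT vehicle and 2219 ± 224 in WT vehicle. Pcdhac1 averaged 283 ± 49.3, 276 ± 35.1, 261 ± 28.5 and 268 ± 42.5 in that order (SD, n = 8, 7, 6 and 8). For HT vehicle minus WT vehicle and for each drug minus HT vehicle, the largest difference of these 4 genes was that of Pcdhac1 with fluoxetine (log2 fold change 0.11 ± 0.12, adjusted p = 0.857 by limma). Over both sexes and all comparisons, the largest was that of Pcdhac2 for HT lithium minus WT vehicle (0.15 ± 0.06, adjusted p = 0.197).

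Pcdhgc4 averaged 1820.1 ± 709 in HT fluoxetine, 1888 ± 337 in HT lithium, 1724 ± 221 in HT vehicle and 1821 ± 480.3 in WT vehicle, so its means were close while its libraries were not. HT fluoxetine females had 1310.4, 2403, 1452 and 1303 normalised counts and HT fluoxetine males 976, 2050.4, 1927 and 3139. HT lithium females had 1522, 1619.7 and 1958, and HT lithium males 2060.1, 1534, 2119 and 2402. HT vehicle females had 2045, 1463 and 1719, and HT vehicle males 1763, 1493 and 1861. WT vehicle females had 1767, 1654, 2059 and 2586, and WT vehicle males 2369, 1220.3, 1366 and 1550.2. High and low libraries occurred in both sexes, and the lowest and the highest of all 29 both came from HT fluoxetine males, 3.21-fold apart. The log2 fold change of Pcdhgc4 was -0.05 ± 0.19 for HT vehicle minus WT vehicle, -0.00 ± 0.19 with fluoxetine and 0.10 ± 0.20 with lithium. Its coefficient of variation within groups was 27.5%, against 6.00% for Pcdhgc3 and 6.98% for Pcdhgc5.

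The rest of the gamma cluster varied against Pcdhgc4. Within groups the SD was 499 normalised counts for Pcdhgc4 and 544 for the sum of the other 21 gamma members, but 375 for the whole gamma sum. HT fluoxetine male 4 had the highest Pcdhgc4 and also the lowest sum of the other gamma members, at 17505. Pcdhgc4 made up 4.84 to 15.2% of the gamma signal of a library. The variances of the 22 gamma members alone would add up to an SD of 768 for their sum if members moved independently, so the measured variance of the sum was 0.238 of that. Without Pcdhgc4 the ratio was 0.869, so the low value rests on that gene. For the alpha cluster the same ratio was 1.38, and 0.822 without the C-types. For the beta cluster, whose genes share almost no exon, it was 5.80: beta members tended to be high or low in the same libraries, and the beta sum had an SD of 6.44% of its mean, against 5.21% for alpha and 1.78% for gamma. Counting error alone would give an SD of 67.7 for the beta sum, against 286 measured. The highest beta sum, 5100 in WT vehicle male 3, came with an olfactory marker mean of 2.08 (log2, centred per gene). The next, 5036 in HT fluoxetine female 3, came with 1.21. The lowest, 3846 in HT fluoxetine male 4, came with 0.60, and the next lowest, 4070 in HT lithium male 1, with -2.32. Neither the tissue markers nor the division of reads among shared exons was tested as a source of these ratios.

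Most members spread more between libraries of a group than other genes of like level, and beta members did so least. The residual SD lay above the trend over all tested genes in 14 of 14 alpha, 22 of 22 gamma and 19 of 21 beta members. The median ratio to that trend was 1.65 in alpha, 1.52 in gamma and 1.16 in beta. The median percentile of this ratio among all tested genes was 89.7 in alpha, 86.9 in gamma and 70.9 in beta. Pcdhgc4 had a ratio of 4.61, higher than 99.3% of all tested genes, while Pcdhb20 had the lowest of all members at 0.705.

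**Figure D4:**
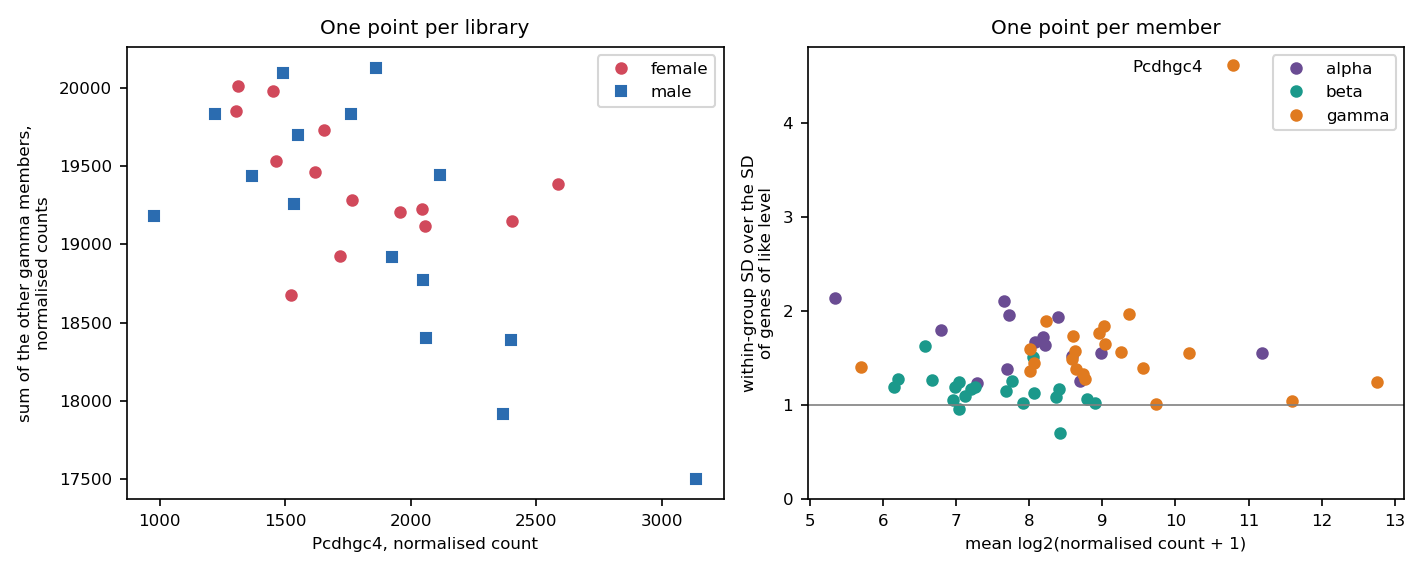
Left, Pcdhgc4 against the summed other gamma members in normalised counts, with 1 point per library, females as circles and males as squares. Right, the within-group SD of each member divided by that of genes of like level, against its mean log2 value, coloured by cluster; Pcdhgc4 stands at 4.61, and 2 beta members lie below 1.

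By sex, 1 member differed. Pcdha8 was higher in females in the mean over the 4 groups of genotype and treatment, with a log2 fold change (female minus male) of 1.05 ± 0.22 and an adjusted p of 0.0372 by limma. By that rule 0.257% of all tested genes were called, or 46 genes, of which 14 lie on X or Y and 32 do not. Pcdha8 ranked 23 by p among genes outside X and Y. HT fluoxetine females had 64.4, 66.3, 49.1 and 112 normalised counts and HT fluoxetine males 27.7, 26.4, 62.1 and 29.4. HT lithium females had 76.2, 82.8 and 65.9, and HT lithium males 25.9, 14.5, 50.7 and 20.7. HT vehicle females had 62.2, 52.9 and 15.2, and HT vehicle males 28.8, 17.1 and 28.6. WT vehicle females had 59.2, 68.6, 48.7 and 50.4, and WT vehicle males 12.02, 19.7, 53.0 and 39.6. Females were higher in the mean of each group, but the sexes overlapped, with HT vehicle female 3 the lowest female and HT fluoxetine male 3 the highest male. Only in HT lithium were all females above all males.

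The Pcdha8 call was close to the threshold and rests on few reads, and 32.7% of its 31-base words are its own. It was lost in 20 of 29 fits that left out a library, with an adjusted p of 0.00451 to 0.0940, and without the 9 libraries with high striatal or olfactory markers (adjusted p = 0.224, log2 fold change 1.10). edgeR called it at an adjusted p of 0.0328 and DESeq2 at 0.00131. The libraries with high markers were 5 of 14 female and 4 of 15 male ones. The 12 striatal markers summed to 6954 to 26199 normalised counts in females and 7218 to 24598 in males. The 10 olfactory markers summed to 1092 to 15701 in females and 829.4 to 17855 in males. With the means of both marker lists as covariates the log2 fold change of Pcdha8 was 1.0006 (adjusted p = 0.0252).

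No member other than Pcdha8 passed the threshold by sex in limma. Pcdha8 included, 12 members had an unadjusted p under 0.05 (21.1%, against 8.18% of all tested genes), and 7 of them were among the 14 alpha genes. Of those 7, Pcdha8, Pcdha10, Pcdha11 and Pcdha12 had a positive log2 fold change and Pcdha5, Pcdha6 and Pcdha9 a negative one, while the alpha sum was 5775 ± 271 in females and 5838 ± 375 in males (SD, n = 14 and 15). These 7 were picked out after their values were seen, and they share constant exons. Pcdhga11 had a log2 fold change of 0.18 ± 0.05 (adjusted p = 0.145 by limma, 0.0480 by DESeq2), and Pcdha9 one of -0.31 ± 0.09 (adjusted p = 0.170). Pcdhga11 lay between 1094.5 and 1608 normalised counts in females and between 814 and 1372 in males. No member had the sexes fully apart, against 0.0559% of all tested genes.

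The last question was whether drug or genotype differences depend on sex. For fluoxetine, limma called 1 of 57 members, Pcdhga2, and 0.106% of all tested genes (19 genes). Pcdhga2 was the 1 gene called with a positive difference, or 0.00559% of all tested genes. HT fluoxetine females had 408, 392, 452 and 507 normalised counts of Pcdhga2, against 357, 329 and 386 in HT vehicle females. HT fluoxetine males had 304, 346, 352 and 315, against 521, 628 and 456 in HT vehicle males. All HT fluoxetine females lay above all HT vehicle females, and all HT fluoxetine males lay below all HT vehicle males. With so few libraries, groups stand apart in many genes: the fluoxetine and vehicle libraries did not overlap in 5 of 57 members and 9.13% of all tested genes in females, and in 8 of 57 members and 8.43% of all tested genes in males. The female minus male difference of the fluoxetine effect was 0.98 ± 0.18 on the log2 scale (adjusted p = 0.0224 by limma, 0.0205 by edgeR and 1.58e-04 by DESeq2).

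Within each sex, the fluoxetine difference of Pcdhga2 did not pass the threshold. It was 0.29 ± 0.13 in females (adjusted p = 0.375) and -0.69 ± 0.13 in males (adjusted p = 0.279), where limma called 0.028% and 0.0% of all tested genes. WT vehicle females had 354, 300.0, 422 and 415 normalised counts, and WT vehicle males 406, 412, 351 and 397, so all 3 HT vehicle males lay above every male of the other groups. HT lithium females had 409, 283 and 328, and HT lithium males 324, 346, 436 and 376. The log2 difference of lithium and vehicle in HT males was -0.53 ± 0.13 (adjusted p = 0.305), and the lithium effect differed between females and males by 0.44 ± 0.19 (adjusted p = 0.9997). The genotype effect differed between the sexes, female minus male, by -0.49 ± 0.18 (adjusted p = 0.847). All of these share the 6 HT vehicle libraries. Without HT vehicle male 1 the adjusted p of the fluoxetine difference between the sexes was 0.0940, and it was also above 0.05 without HT fluoxetine female 3 (0.0514) or 4 (0.0584), HT fluoxetine male 4 (0.0640) or HT vehicle female 1 (0.0577) or 3 (0.0696).

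**Figure D5:**
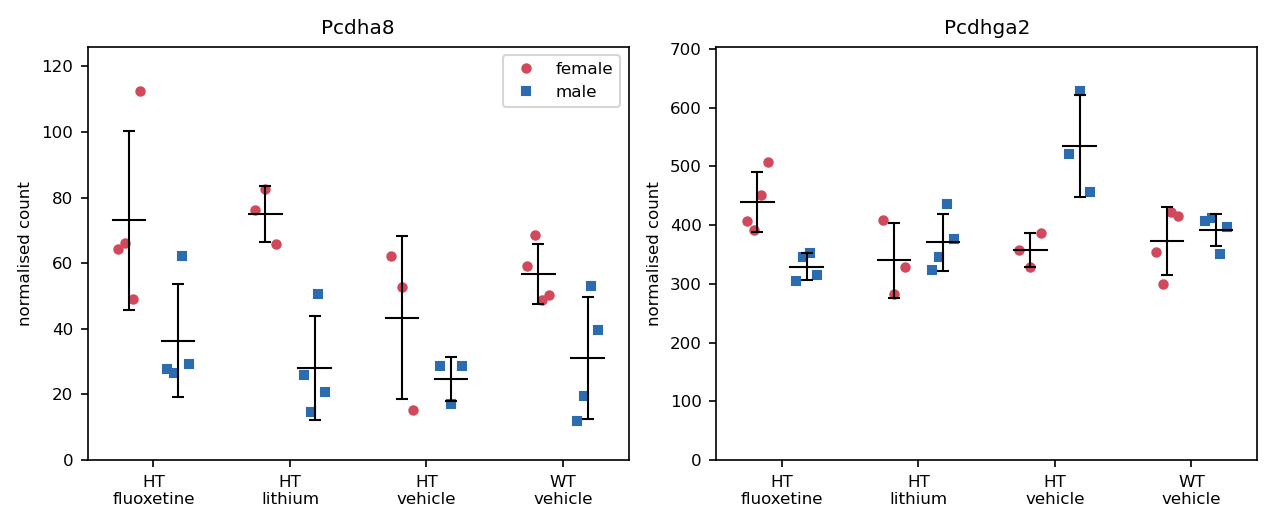
Normalised counts of Pcdha8 and Pcdhga2 in every library by group, with females as circles left of males as squares, and bars for the mean and SD of each sex. Pcdha8 is higher in the mean of females in all 4 groups, and for Pcdhga2 the HT vehicle males reach 456 to 628, above the HT fluoxetine males at 304 to 352.

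None of the other 56 members passed in this comparison. Their female minus male difference of the fluoxetine effect was positive in 42 and negative in 14, while 51.3% of all tested genes were positive. With Pcdhga2 included, 18 of 21 beta, 17 of 22 gamma and 8 of 14 alpha members were positive. The median was 0.19 over all members and 0.01 over all tested genes. Pcdhga2 included, 13 members had an unadjusted p under 0.05 (22.8%, against 13.6% of all tested genes), of which 11 were positive and 2 negative, namely Pcdha4 (-0.32 ± 0.15, adjusted p = 0.363 by limma) and Pcdhga12 (-0.21 ± 0.10, adjusted p = 0.367). Among the positive ones, Pcdhb16 had a difference of 0.70 ± 0.21 (adjusted p = 0.167) and Pcdhga7 one of 0.59 ± 0.20 (adjusted p = 0.192). The beta sum was 3846 to 4339 in HT fluoxetine males, against 4418 to 4643 in HT vehicle males, and 4179 to 5036 in HT fluoxetine females, against 4183 to 4810 in HT vehicle females. The gamma sum was 20159 to 20846 in HT fluoxetine males, against 21589 to 21992 in HT vehicle males, and 21156 to 21551 in HT fluoxetine females, against 20642 to 21274 in HT vehicle females. For both sums the male groups did not overlap and the female groups did. Among all tested genes, 8.43% had these male groups apart and 9.13% these female groups. In the gamma sum HT vehicle males also lay above all WT vehicle males (20288 to 21249) and all HT lithium males (20463 to 21564). In the beta sum WT vehicle males (4383 to 5100) lay above all HT fluoxetine males and overlapped HT vehicle males. The alpha sum overlapped in males, at 5583 to 6161 in HT fluoxetine males, against 5615 to 5911 in HT vehicle males, and its mean was higher in the HT fluoxetine males (5915, against 5720.5).

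Marker lists were set beside the members in the same comparison. The 12 striatal markers all had a negative difference (median -0.55) and the 10 olfactory markers all a positive one (median 0.77), with 0 called by limma. The striatal markers summed to 6964 to 26199 normalised counts in HT fluoxetine females, against 6954 to 8794 in HT vehicle females, and 7724 to 24598 in HT fluoxetine males, against 7869 to 8777 in HT vehicle males. The olfactory markers summed to 2012 to 15701 in HT fluoxetine females, against 3293 to 10044 in HT vehicle females, and 2599 to 6591 in HT fluoxetine males, against 5125 to 11833 in HT vehicle males. Without the 9 libraries with high markers the difference of Pcdhga2 was 1.10, with an adjusted p of 0.1004. The 6 excitatory markers were all negative (median -0.15). Of the astrocyte markers 6 of 7 were positive (median 0.13), of the oligodendrocyte markers 7 of 8 (0.13), of the meningeal markers 5 of 6 (0.13) and of the choroid plexus markers 1 of 5 (-0.82). With the striatal and olfactory means as covariates the difference of Pcdhga2 was 0.94 (adjusted p = 0.0294). The part of the other markers was not tested.

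For the other differences between the sexes limma called 0 of 57 members and 0.0% of all tested genes, as did edgeR for members, and DESeq2 called 0 members. The genotype difference had 2 members at an unadjusted p under 0.05 (3.51%, against 5.6%): Pcdhga2, and Pcdhgb8 at 0.90 ± 0.39 (adjusted p = 0.847). Pcdhgb1 followed at -0.33 ± 0.19 (adjusted p = 0.847). The lithium difference had 5 such members (8.77%, against 2.92%), led by Pcdhb13 at 0.61 ± 0.22 and Pcdhgb4 at 0.66 ± 0.24, both with an adjusted p of 0.9997. These differences are less precise than those over both sexes. Their 95% interval passed a 1.5-fold change in 26 members for genotype, 37 for fluoxetine and 30 for lithium.

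Genes that regulate or accompany the clusters were taken from 4 lists. Of 22 regulators of the clusters, including Ctcf, the cohesin subunits, Smchd1 and Setdb1, limma called 0 in every comparison. Wapl, which releases cohesin from chromatin, had the smallest p for genotype (-0.12 ± 0.04, adjusted p = 0.146), fluoxetine (0.12 ± 0.04, adjusted p = 0.428) and lithium (0.12 ± 0.04, adjusted p = 0.269). These 3 differences share the HT vehicle libraries. In the female minus male difference of the fluoxetine effect all 22 regulators were positive, with a median of 0.23. Among all tested genes 51.3% were positive, with a median of 0.007. Tet2, a DNA demethylase, was closest to the threshold (0.36 ± 0.09, adjusted p = 0.0964). Striatal, olfactory and excitatory markers also shifted as sets in this comparison, and their part in the regulators was not tested.

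Among 12 protocadherins outside the clusters, Pcdh1 was higher in HT lithium than in WT vehicle (0.18 ± 0.04, adjusted p = 0.0184) and in all carriers than in WT vehicle (0.15 ± 0.03, adjusted p = 0.0184). Of 18 genes beside the clusters, Hars, a histidyl-tRNA synthetase (0.15 ± 0.04, adjusted p = 0.0303), Diaph1, an actin-nucleating formin (0.17 ± 0.05, adjusted p = 0.0473), and Fchsd1 (0.23 ± 0.06, adjusted p = 0.0497) were higher in HT lithium than in WT vehicle. Fchsd1 was also higher in all carriers than in WT vehicle (0.19 ± 0.05, adjusted p = 0.0440). Both comparisons share the WT vehicle and HT lithium libraries. In HT lithium minus WT vehicle all 10 olfactory markers were lower (median -1.11), and all 6 excitatory markers were higher, 1 of them called by limma. Of 7 endothelial and mural markers, limma called 3 lower there, with 2 of the 7 positive. In all carriers minus WT vehicle it called 4 of these 7 lower. The part of tissue markers in the called genes was not tested. Ndufa2, a subunit of respiratory complex I, had a female minus male difference of the fluoxetine effect of -0.71 ± 0.11 (adjusted p = 0.00336), opposite in sign to that of Pcdhga2. For that difference limma called 0.106% of all tested genes. Of 23 signalling partners of protocadherins, 1 was called higher in HT lithium and 1 in all carriers than in WT vehicle. Among all tested genes, limma called 1.9% in HT lithium minus WT vehicle and 1.93% in all carriers minus WT vehicle. None of these 3 lists had a called gene in the genotype, fluoxetine or lithium comparison. The smallest p belonged to Pcdh1, Marcks and Fchsd1 for genotype (adjusted p of 0.161, 0.182 and 0.197). It belonged to Pcdh15, Abi2 and Rnf14 for fluoxetine (0.701, 0.595 and 0.612), and to Pcdh15, Rock2 and Rnf14 for lithium (0.454, 0.261 and 0.262).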

How the data were processed

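The authors deposited 1 table with a normalised signal per Ensembl gene in 29 libraries. As read from the values, each is a read count divided by 1 size factor per library, since all came out as whole multiples of 1 step per library within 0.0001. The step was near 1 for HT fluoxetine females 1 and 2 and male 3. Per the submitters' processing notes, which give no role or order, Salmon 0.11.2, R 3.6.0, DESeq2 1.19.11 and GRCm38 were used. Libraries came from a stranded mRNA kit, per the labels' protocols. The strand setting and annotation release are not given in the sources used here, and antisense exons overlap several members, such as Pcdha11, Pcdhb12 and Pcdhgc3. Symbols and exons came from GENCODE M21, which named 18227 of 18240 identifiers. ENSMUSG00000007440 was named Pcdha10 after its RefSeq transcript. GENCODE calls it Pcdha11, which here is ENSMUSG00000102206.

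Values were used as log2(value + 1). The 17881 genes with at least 10 in at least 3 libraries were fitted with limma 3.58.1 in R 4.3.3, with 1 mean for each of 8 groups of genotype, treatment and sex, 21 residual degrees of freedom, an intensity trend and two-sided tests adjusted by Benjamini-Hochberg over all genes tested at 0.05. A difference not given by sex averages the female and male differences with equal weight. edgeR 4.0.16 and DESeq2 1.42.0 on recovered reads were added after the data were seen. The fits were tested on simulated data. Members and lists were chosen with earlier results of these data known. Named were all called members or the 3 of smallest p, the 3 highest and lowest levels of each cluster, all C-types, and the called genes of a list or its gene of smallest p, except for some results that are not reported here. The number of reads limits the precision of members with few. No libraries agreed within sampling noise, since chi-square per degree of freedom was 4.76 to 35.2 between libraries of 1 group.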

Additional observations from a re-analysis of the deposited data

Results flagged for a closer look

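The 22 named members and 3 cluster sums were looked at in each group and sex with 4 libraries. Of these 125 sets, 8 held a library that stood far from the other 3, where chance gives about 1 in 20. They were Pcdha3 at 270.3 normalised counts in HT lithium male 4, Pcdha8 at 62.1 in HT fluoxetine male 3, Pcdhb13 at 108 in HT fluoxetine female 2 and Pcdhgb7 at 464 in WT vehicle male 3. The others were Pcdhgc3 at 3360.3 in WT vehicle female 4, Pcdhgc4 at 2403 in HT fluoxetine female 2, and the beta sum at 3846 in HT fluoxetine male 4 and at 5100.3 in WT vehicle male 3. HT fluoxetine female 2 is 1 of the 9 libraries with high striatal or olfactory markers, as is WT vehicle male 3.

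The fluoxetine difference of Pcdhga2 differed between females and males by 0.98 on the log2 scale, by the test of that difference itself (adjusted p = 0.0224 by limma).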

How the results depend on the processing

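The 33 named differences were fitted under 47 settings, which gave 1536 values: 0 changed direction, 32 lost a call and 4 gained one. They were named for their small p in these same libraries, and many settings left out a single library. A kept direction was therefore likely from the start and is no support for differences that were not called. The count of members called by sex was 1, and 0 under quantile normalisation, without the intensity trend, with robust moderation and without the 9 libraries with high striatal or olfactory markers. It was 2 with the marker means as covariates and 2 with DESeq2, where Pcdhga11 joined (adjusted p = 0.0250 and 0.0480). For the fluoxetine difference between sexes it was 1, and 0 with only the groups compared (Pcdhga2, adjusted p = 0.0796) and without those 9 libraries. For HT lithium minus WT vehicle it was 0, and 1 with library weights and 1 with only the groups compared. Leaving out each library gave 0 to 1 for sex, 0 to 1 for the fluoxetine difference between sexes and 0 to 1 for carriers minus WT vehicle, where Pcdhga9 passed without HT vehicle female 2 (adjusted p = 0.0377). The cause was not tested. Over all tested genes the number called varied more between settings: 0 to 212 for genotype (37 as reported), 0 to 6 for fluoxetine (0), 0 to 32 for lithium (0), 0 to 96 for HT fluoxetine minus WT vehicle (34), 26 to 1174 for HT lithium minus WT vehicle (340), 38 to 592 for carriers minus WT vehicle (345), 22 to 98 for sex (46) and 1 to 198 for the fluoxetine difference between sexes (19). The lowest counts for genotype, carriers, HT lithium minus WT vehicle and sex came without the 9 libraries. Of pairs with the same replicate number, 14 of 94 had a correlation of deviations over 0.1, against 54 of 273 with different numbers. The median correlations were -0.014 and 0.004. Of 29 libraries, 11 were closest to one of their own number, so these values do not settle whether the numbers pair libraries. HT vehicle females are numbered 1 to 3 in the titles, used here, and 2 to 4 in the library names. By library name 17 of 92 pairs were over 0.1. With either number as a replicate block, 0 members were called for genotype, fluoxetine and lithium and 1 each for sex and the fluoxetine difference between sexes. The cluster sums moved by less than their spread under all settings tried. Per kilobase of the longest transcript instead of all exons, Pcdha4 (77.4) stood above Pcdha5 (74.1), and Pcdha2 (29.1) took the place of Pcdha11 among the 3 lowest alpha genes. Pcdha11 stood at 40.3, Pcdhgb4 at 55.9, Pcdhgb5 at 55.7, Pcdhgc3 at 661 and Pcdhgc5 at 1204. Depth limits Pcdha8 and Pcdhgb8 most.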
